A study of Mus musculus with 6 samples.

Results

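The genes described are the cathepsins, the proteases of the lysosome, and the subunits of the vacuolar H+-ATPase (V-ATPase), the proton pump that acidifies it. They were taken by name from a table of 35275 genes: names beginning with Atp6v0, Atp6v1 or Atp6ap, and Cts followed by a single letter. This gave 43 genes, 25 of the V-ATPase and 18 cathepsins. A gene below 0.5 FPKM (reads assigned to a gene, scaled to its length and to the depth of the library) in 4 or more of the 6 samples was taken as not measured, which left 21 V-ATPase genes and 13 cathepsins, 34 in all. RNA was sequenced from whole epididymal adipose tissue, a visceral fat depot, of C57BL/6 males. The 3 control samples carried the genotype Tfrcfl/fl, a Tfrc gene flanked by loxP sites, and the 3 knockout samples the genotype TfrcAKO. Tfrc encodes the transferrin receptor. AKO is commonly read as an adipocyte-specific knockout, but the labels neither spell it out nor name the promoter that drives Cre. Both groups were given a 60% high-fat diet from 2 months of age for 10 weeks and were 4.5 months old. The comparison asked how the mRNAs of this fat depot differ when Tfrc is deleted.

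The V-ATPase is a rotary pump. Its peripheral sector, encoded by the Atp6v1 genes, burns ATP on the cytosolic face, and its membrane sector, encoded by the Atp6v0 genes, carries protons into the lumen. Several subunits exist as alternative isoforms from separate genes, some found in nearly every cell and others known from osteoclasts, macrophages, kidney, epididymis, brain or testis. Cathepsins are made as inactive precursors and mature in the acid that the pump provides. Most are cysteine proteases, Ctsd and Ctse are aspartic proteases, and Ctsa and Ctsg are serine enzymes. Macrophages of obese fat are rich in lysosomes, which take up lipid and dead adipocytes.

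Gene-assigned reads ranged from 25252839 to 30650624 per sample, so that 3 reads over 2 kb of gene length equal 0.0489 to 0.0594 FPKM. Tfrc read 11.1, 13.2 and 11.9 FPKM in the controls, in the order of replicates 1, 2 and 3 used throughout, against 7.10, 8.27 and 9.50 FPKM in the knockouts, so it was lower in every library labelled knockout. Knockout replicate 3 stood apart from the other knockout libraries in most of the genes below. Control replicate 2 was often the highest control. A value in whole tissue cannot tell fewer cells of a type from less RNA per cell. Adipoq, a marker of the labelled tissue, lay between 326 and 1875 FPKM. None of 14 genes of epididymal epithelium was measured, Foxi1, Lcn5, Spinkl and Pate4 were listed at 0 in all samples, and the list summed to between 0.0867 and 2.80 FPKM. Macrophage markers (18 of 18 measured) summed to 6150 to 7081 FPKM in control and to 1531 to 3413 FPKM in knockout samples, with 13 lower, none higher and none listed at 0 in all samples. Mature adipocyte markers (17 of 17 measured) summed to 8231 to 12155 FPKM in control and to 24275 to 36494 FPKM in knockout samples, with 16 higher and none lower. Over all tested genes, 21.6% were called lower and 21.9% higher by the test given below. The part of these shifts in the results below was not tested.

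Most measured members fell in the knockout. By limma, at an adjusted p under 0.05, 13 of 21 V-ATPase genes fell and 1, Atp6v0e2, rose. Of 13 cathepsins 9 fell and 1, Ctsf, rose. Over all 14383 tested genes 21.6% were called lower and 21.9% higher. The median log2 fold change was −0.56 for V-ATPase genes, −0.92 for cathepsins and −0.03 for all tested genes. Of the members, 6 cathepsins and 3 V-ATPase genes were called with a decrease of more than 1 on the log2 scale, which 5.29% of tested genes also showed. That share is for the fit with all libraries. Without knockout replicate 3 such a decrease held for 2 cathepsins, Ctsk and Ctss, and 1 V-ATPase gene, Atp6v0d2. Without control replicate 2 it held for 5 cathepsins and 2 V-ATPase genes, and likewise without control replicate 3. In both of those fits Ctsk stayed, while Ctss and Atp6v0d2 did not. Every knockout sample lay below every control sample for 16 V-ATPase genes and 10 cathepsins, against 31.0% of tested genes, and above for 1 of each, against 29.1%. Among the 22 members that fell, knockout replicate 3 was the lowest library for 20 and control replicate 2 the highest for 20. Without knockout replicate 3 and control replicate 2, 12 V-ATPase genes and 9 cathepsins fell, against 14.9% of tested genes. Without control replicate 2 alone, 10 V-ATPase genes and 6 cathepsins fell, against 9.21% of tested genes. Without control replicate 3 there were 11 and 6, against 10.8% of tested genes.

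In sum the cathepsins took 1.94%, 2.25% and 2.10% of all gene-assigned reads in control replicates 1, 2 and 3. In knockout replicates 1, 2 and 3 they took 1.18%, 1.08% and 0.725%. The V-ATPase genes took 0.428%, 0.495% and 0.469% in control and 0.299%, 0.289% and 0.227% in knockout samples, in the same order. For both families no knockout sample reached a control sample. Ctsb, Ctsd, Ctsl and Ctss together made up 83.8% ± 0.537 of summed cathepsin FPKM in control and 82.9% ± 0.388 in knockout samples (SD, n = 3 each). Within that sum the share of Ctss was 12.3%, 13.6% and 13.2% in control and 11.4%, 11.1% and 7.09% in knockout samples, with no overlap, while that of Ctsl overlapped, at 12.8% ± 1.20 and 13.2% ± 0.314 (SD, n = 3 each).

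**Figure D1:**
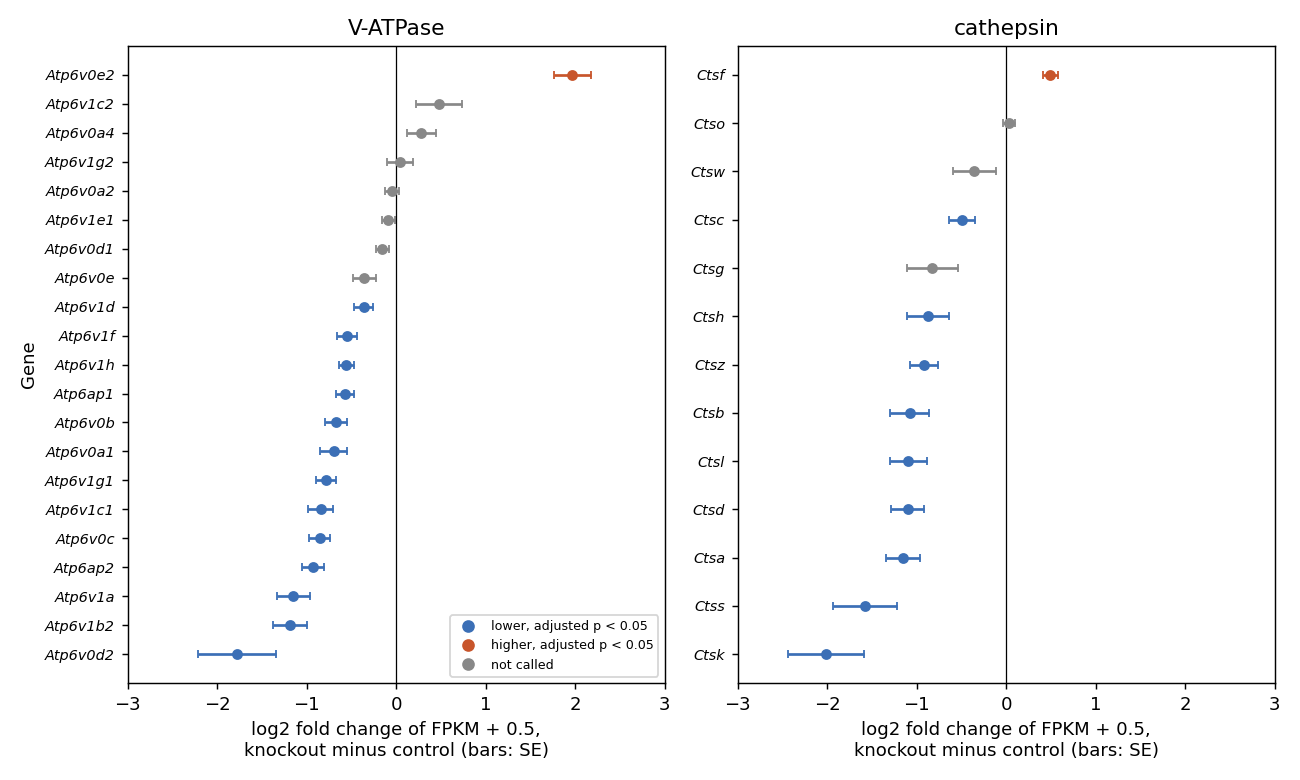
Log2 fold change of each measured gene on the log2(FPKM + 0.5) scale, knockout minus control, with its limma standard error as a bar; V-ATPase genes are on the left and cathepsins on the right. Atp6v0e2 and Ctsf stand to the right of 0 and are coloured as higher, while Atp6v0d2, Ctsk and Ctss lie farthest to the left.

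Promoter sequences of the members were looked up for description only, and no test was run on them. The MiT/TFE transcription factors, among them Tfeb, are known to bind an E-box, CACGTG, in many lysosomal genes. The letters searched were CACGTG, its extension TCACGTGA, and the longer CLEAR motif that contains both; each is its own reverse complement, so a match counts for both strands. The windows ran from 250 bases before to 50 bases after each RefSeq gene start (GRCm38.p6), and 25 of the 34 measured members had one. Atp6v0a2, Atp6v0d2, Atp6v1b2, Atp6v1c1, Atp6v1g1, Atp6v1h, Ctsb, Ctsh and Ctsw had no entry. CACGTG was found in 8 of the 25: Atp6v0b, Atp6v0d1, Atp6v0e, Atp6v1a, Ctsa, Ctsd, Ctsf and Ctsl. It was present in 7.15% of all 32851 promoter windows, and 11.5% of the 10114 tested genes with a window had it. TCACGTGA was found in 5 members, Atp6v0d1, Atp6v0e, Atp6v1a, Ctsa and Ctsd, in 0.974% of all windows and in 2.10% of tested genes with a window. The CLEAR motif was found in no member, in 0.326% of all windows and in 0.821% of tested genes with a window. A match of letters is not a binding site, and members with and without one were found among those that fell. Members with a match were also found outside them. Ctsf, with CACGTG, rose, and Atp6v0d1 and Atp6v0e, with TCACGTGA, were not called. The 5 promoters with TCACGTGA are shown from 150 bases before to 20 bases after the start, with that of Atp6v0e2, the V-ATPase gene that rose, for comparison with its partner Atp6v0e. Capitals mark TCACGTGA.
Atp6v1a, chr16:44139240-44139409, minus strand: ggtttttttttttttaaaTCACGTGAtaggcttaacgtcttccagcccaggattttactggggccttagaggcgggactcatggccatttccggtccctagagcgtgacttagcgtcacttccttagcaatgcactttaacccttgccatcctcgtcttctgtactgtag
Atp6v0d1, chr8:105566045-105566214, minus strand: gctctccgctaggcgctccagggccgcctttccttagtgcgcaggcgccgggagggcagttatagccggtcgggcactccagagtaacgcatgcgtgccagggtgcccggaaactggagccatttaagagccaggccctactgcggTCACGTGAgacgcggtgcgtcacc
Atp6v0e, chr17:26676246-26676415, plus strand: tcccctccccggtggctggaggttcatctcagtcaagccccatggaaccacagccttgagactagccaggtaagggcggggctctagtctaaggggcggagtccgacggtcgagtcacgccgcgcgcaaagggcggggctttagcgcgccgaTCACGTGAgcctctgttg
Atp6v0e2, chr6:48537419-48537588, plus strand: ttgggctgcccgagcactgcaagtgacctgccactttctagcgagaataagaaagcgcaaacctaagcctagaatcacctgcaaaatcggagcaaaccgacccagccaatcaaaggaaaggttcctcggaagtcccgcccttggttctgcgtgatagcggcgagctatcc
Ctsd, chr7:142387808-142387977, minus strand: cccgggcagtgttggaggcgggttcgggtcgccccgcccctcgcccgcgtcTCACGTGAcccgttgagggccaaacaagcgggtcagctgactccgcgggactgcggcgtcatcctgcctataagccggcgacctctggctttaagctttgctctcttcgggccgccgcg
Ctsa, chr2:164833623-164833792, plus strand: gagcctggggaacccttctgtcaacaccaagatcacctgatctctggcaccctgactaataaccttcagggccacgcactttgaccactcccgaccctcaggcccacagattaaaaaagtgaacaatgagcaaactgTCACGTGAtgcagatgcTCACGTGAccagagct
Counted from the RefSeq start, the match began 132 bases before it in Atp6v1a, 99 before it in Ctsd, 4 before it in Atp6v0d1 and at base 3 of the transcript in Atp6v0e. The stretches shown for Atp6v1a, Ctsd and Ctsa lie inside the gene spans of the expression data. By those spans their matches lie downstream of the gene start. Ctsa held a pair of matches, 13 bases before the start and at base 5 of the transcript, at one of its RefSeq starts and none at the other. The Atp6v0e2 window held none.

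In the peripheral sector, the catalytic and regulatory subunits of the ATP-binding ring had the largest decreases. Atp6v1b2 encodes the widely expressed B subunit (ENSMUSG00000006273, mm10 chromosome 8, 69088646 to 69113711, plus strand) and was the most abundant member of the pump in control tissue. Its levels were 227, 266 and 265 FPKM in control samples, against 133, 123 and 82.2 FPKM in knockout samples. The groups were far apart, with the lowest control well above the highest knockout sample, and Atp6v1b2 fell by 1.19 ± 0.19 on the log2 scale (SE, limma adjusted p = 0.00569). Atp6v1a, the A subunit that hydrolyses ATP (ENSMUSG00000052459, chromosome 16, 44085402 to 44139705, minus strand), was at 125, 146 and 130 FPKM in control and at 70.1, 68.7 and 44.4 FPKM in knockout samples. It fell by 1.15 ± 0.18 (SE, limma adjusted p = 0.00572). Knockout replicate 3 was lowest for both ring genes, and without it the values were −0.98 for Atp6v1b2 and −0.94 for Atp6v1a.

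The stalk subunits fell less. Atp6v1c1, which joins the peripheral sector to the membrane when the pump assembles, fell by 0.84 ± 0.14 and Atp6v1g1, of the peripheral stalk, by 0.79 ± 0.11 (SE). Atp6v1h, the subunit that stops ATP hydrolysis in the detached sector, fell by 0.56 ± 0.09, and Atp6v1f, of the central stalk, by 0.55 ± 0.11. Their limma adjusted p lay between 0.00451 and 0.00980. Atp6v1d, the rotor shaft, was at 51.1, 65.7 and 62.0 FPKM in control and at 46.2, 45.6 and 46.0 FPKM in knockout samples. It fell by 0.36 ± 0.10 (SE, limma adjusted p = 0.0287), a call that was lost in 4 of the 6 fits without 1 library: the adjusted p was 0.0959 without control replicate 2, 0.101 without control replicate 3, 0.0587 without knockout replicate 1 and 0.0728 without knockout replicate 2. Atp6v1e1, another peripheral stalk subunit, was at 158, 161 and 161 FPKM in control and at 148, 150 and 155 FPKM in knockout samples. Its groups did not overlap, yet the difference was small, at −0.09 with a 95% interval from −0.27 to 0.09 and a limma adjusted p of 0.377. By mean FPKM it ranked 4 among V-ATPase genes in control tissue and 1 in knockout tissue.

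**Figure D2:**
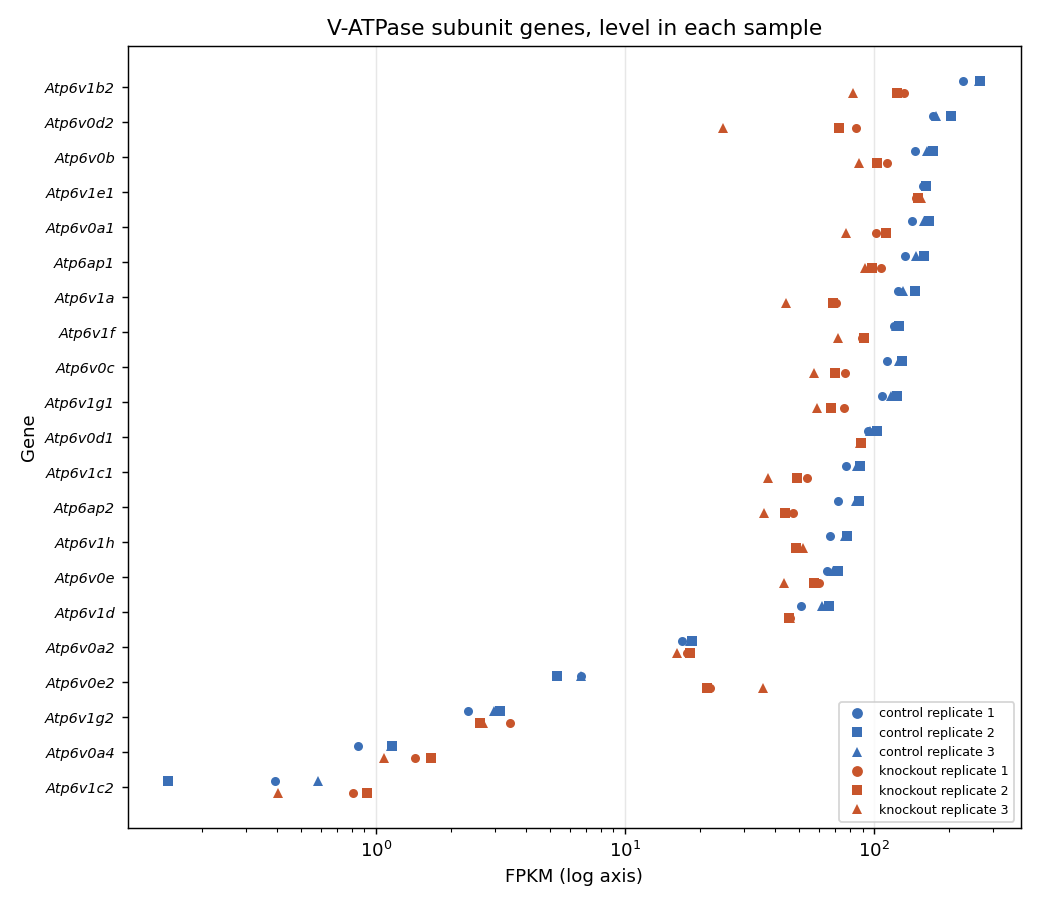
FPKM of the 21 measured V-ATPase genes on a log axis, ordered by control mean, with control samples in blue above knockout samples in orange and a symbol for each replicate. Most ubiquitous subunits are shifted to the left in knockout samples, Atp6v1e1 and Atp6v0d1 hardly so, and Atp6v0e2 is shifted to the right.

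In the membrane sector, the proton-carrying ring and its partners fell together. Atp6v0c, the main ring subunit (ENSMUSG00000024121, chromosome 17, 24163866 to 24169702, minus strand), was at 112, 130 and 126 FPKM in control and at 76.3, 69.6 and 57.7 FPKM in knockout samples. It fell by 0.86 ± 0.12 (SE, limma adjusted p = 0.00452). Atp6v0b, the other ring subunit, was at 146, 173 and 163 FPKM in control and at 113, 102 and 87.3 FPKM in knockout samples, and fell by 0.67 ± 0.12 (SE, limma adjusted p = 0.00751). For both genes every knockout sample was below every control sample. The accessory proteins of the pump moved the same way. Atp6ap2, also known as the prorenin receptor, fell by 0.93 ± 0.13 (SE, limma adjusted p = 0.00413) and Atp6ap1, which helps assemble the membrane sector, by 0.57 ± 0.10 (SE, limma adjusted p = 0.00730).

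Subunit d, which couples the ring to the rotor shaft, has a ubiquitous isoform, Atp6v0d1, and a restricted isoform, Atp6v0d2, known from osteoclasts and macrophages. Atp6v0d2 (ENSMUSG00000028238, chromosome 4, 19876841 to 19922605, minus strand) was at 173, 203 and 177 FPKM in control and at 84.8, 72.1 and 24.7 FPKM in knockout samples. Its mean was 3.05-fold lower in knockout tissue, with knockout replicate 3 far below the other knockout libraries. Atp6v0d2 fell by 1.78 ± 0.43 on the log2 scale (SE, limma adjusted p = 0.0179), or by 1.23 without knockout replicate 3. Its call was lost without control replicate 2 (limma adjusted p = 0.0667) or control replicate 3 (0.0574). Atp6v0d1 (ENSMUSG00000013160, chromosome 8, 105524465 to 105566047, minus strand) was at 95.1, 103 and 96.4 FPKM in control and at 87.6, 88.6 and 87.8 FPKM in knockout samples. These values also did not overlap, but the difference was −0.16, with a 95% interval from −0.33 to 0.02 and a limma adjusted p of 0.122.

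Set against each other within a sample, the d isoforms shifted in balance. Atp6v0d2 made up 64.5%, 66.4% and 64.8% of the summed FPKM of the pair in control replicates 1, 2 and 3, and 49.2%, 44.9% and 22.0% in knockout replicates 1, 2 and 3. It was thus the more abundant isoform in each control sample and the less abundant in each knockout sample, though only just in knockout replicate 1. The log2 ratio of Atp6v0d2 to Atp6v0d1 was lower by 1.62 in the knockout, or by 1.08 without knockout replicate 3. An exact two-sided permutation test over samples gave p = 0.10, the smallest that 3 against 3 allows, and 0.11 adjusted over the 11 ratios compared. In the same samples, 14 of 16 markers of lipid-associated macrophages and osteoclast-like cells were measured, and none was listed at 0 in all samples. Of those measured 11 were lower and 1 higher, where 21.6% of all tested genes were called lower and 21.9% higher. Their median log2 fold change was −1.77. The list summed to 4548 to 5184 FPKM in control and 3524 to 3928 FPKM in knockout tissue, lowest in knockout replicate 2. Such a sum weighs the most abundant genes most, and it differed far less between groups than the median gene of the list. It is therefore not a measure of how many such cells were present. Trem2, a defining marker of that list, was at 94.6, 117 and 105 FPKM in control and at 44.9, 37.8 and 13.7 FPKM in knockout samples. The part of these markers in the isoform ratio was not tested.

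Subunit e, a small membrane protein of the ring sector, showed the opposite arrangement. Atp6v0e2 (ENSMUSG00000039347, chromosome 6, 48537569 to 48541798, plus strand) was at 6.68, 5.34 and 6.67 FPKM in control and at 21.9, 21.4 and 36.0 FPKM in knockout samples. Every knockout sample was above every control sample, knockout replicate 3 highest, and the mean was 4.25-fold higher. Atp6v0e2 rose by 1.97 ± 0.21 on the log2 scale (SE, limma adjusted p = 0.00363), the smallest adjusted p among the members, and by 1.73 without knockout replicate 3. Atp6v0e, its ubiquitous partner (ENSMUSG00000015575, chromosome 17, 26676396 to 26699644, plus strand), was at 65.0, 71.5 and 68.6 FPKM in control and at 60.2, 57.3 and 43.6 FPKM in knockout samples. The difference was −0.36 with a 95% interval from −0.67 to −0.05 (limma adjusted p = 0.0625). It was called once knockout replicate 1 was dropped (limma adjusted p = 0.0409) or knockout replicate 3 was (0.043), where the value was −0.22.

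The share of Atp6v0e2 in the pair was 9.32%, 6.95% and 8.86% in control replicates 1, 2 and 3 and 26.7%, 27.2% and 45.2% in knockout replicates 1, 2 and 3. Summed over both genes, subunit e was at 74.6 ± 2.66 FPKM in control and 80.2 ± 1.75 FPKM in knockout samples (SD, n = 3 each). The sum over both d genes, by contrast, went from 283 ± 20.7 to 149 ± 31.7 FPKM (SD, n = 3 each). This e pair was added after its values were seen. Its log2 ratio was higher by 2.32 in the knockout (exact two-sided permutation p = 0.10, 0.11 adjusted over the 11 ratios). Of the marker lists, 16 of 17 genes of mature adipocytes, 10 of 10 of endothelium, 8 of 10 of mesothelium and 5 of 5 measured of erythroid cells also rose, with median log2 fold changes of 1.74, 1.17, 0.74 and 1.29. None of these genes fell, and over all tested genes 21.9% were called higher and 21.6% lower. Their part in the rise of Atp6v0e2, and in that of Ctsf described further on, was not tested.

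**Figure D3:**
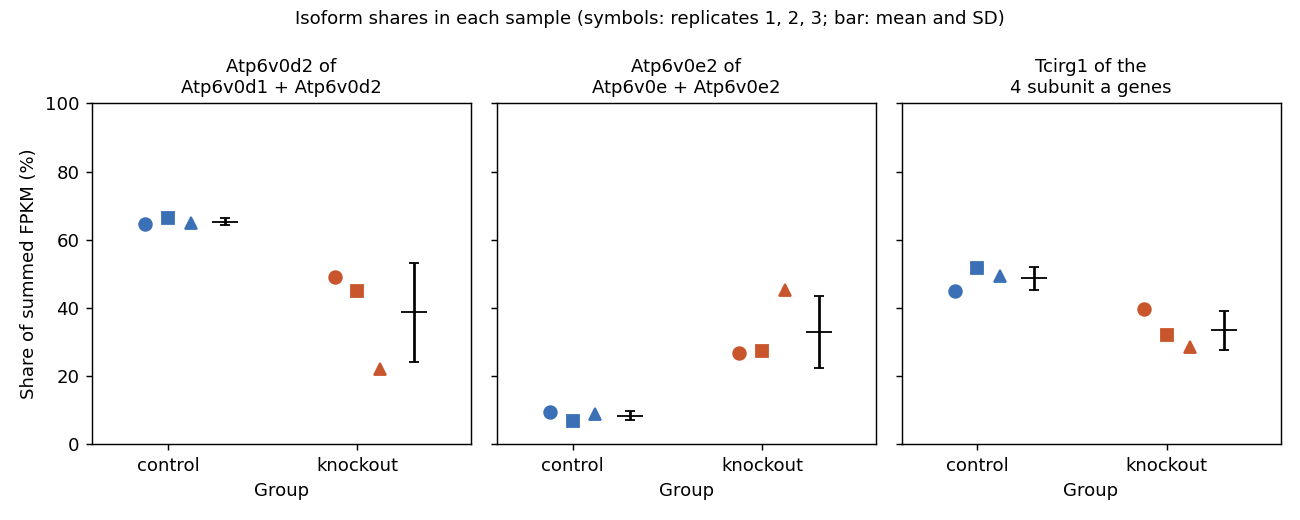
Share of an isoform in the summed FPKM of its subunit, in percent, for each sample, with the group mean and SD as a bar; the symbols are replicates 1 (circle), 2 (square) and 3 (triangle). The share of Atp6v0d2 goes from 64.5–66.4% in control to 22.0–49.2% in knockout samples, that of Atp6v0e2 from 6.95–9.32% to 26.7–45.2%, and that of Tcirg1 from 45.0–51.7% to 28.6–39.6%.

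Subunit a, which holds the proton channel and directs the pump to a membrane, is encoded by 4 genes, and the third isoform carries the name Tcirg1 and so falls outside the name rule. Atp6v0a1 (ENSMUSG00000019302, chromosome 11, 101009452 to 101063719, plus strand) was at 142, 167 and 159 FPKM in control and at 102, 111 and 77.2 FPKM in knockout samples. It fell by 0.70 ± 0.15 (SE, limma adjusted p = 0.0120, or 0.0523 without control replicate 2). Tcirg1, the isoform of the osteoclast and of macrophage lysosomes, was at 131, 200 and 173 FPKM in control and at 79.5, 62.0 and 37.8 FPKM in knockout samples, and fell by 1.53 ± 0.29 (SE, limma adjusted p = 0.00831). Atp6v0a2, known from the Golgi and endosomes, was at 17.0, 18.6 and 18.3 FPKM in control and at 17.7, 18.3 and 16.2 FPKM in knockout samples. Its groups overlapped, with a difference of −0.05 and a 95% interval from −0.22 to 0.13 (limma adjusted p = 0.647). Atp6v0a4, the kidney and epididymis isoform, was at 0.850 to 1.16 FPKM in control and 1.08 to 1.67 FPKM in knockout samples, overlapping ranges with a limma adjusted p of 0.206. Relative to Atp6v0a1, Tcirg1 was lower by 0.83 in the knockout on the log2 scale, Atp6v0a2 higher by 0.65 and Atp6v0a4 higher by 0.98. Atp6v0a1 itself fell, whereas Atp6v0a2 and Atp6v0a4 were not called. None of these 3 ratios overlapped between groups, as was so for 10 of the 11 ratios compared. Each had an exact two-sided permutation p of 0.10, or 0.11 adjusted over the 11 ratios.

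The other restricted isoforms were low or not measured. Atp6v1g2, known from neurons, was at 2.35 to 3.14 FPKM in control and 2.62 to 3.47 FPKM in knockout samples, overlapping ranges (difference 0.04, 95% interval from −0.31 to 0.39, limma adjusted p = 0.836). Nfkbil1, at a mean of 3.92 FPKM, overlaps Atp6v1g2 on the opposite strand, and without a stated strand setting their reads cannot be told apart. Atp6v1c2, known from kidney and lung, lay between 0.147 and 0.917 FPKM, with overlapping groups and a limma adjusted p of 0.172. It lies across Pdia6, whose mean was 125 FPKM, on the opposite strand, and their reads cannot be told apart either. Relative to the ubiquitous isoforms, Atp6v1g2 was higher by 0.83 and Atp6v1c2 by 1.32 on the log2 scale (exact two-sided permutation p = 0.10 each, 0.11 adjusted over the 11 ratios). In both pairs the ubiquitous gene fell and the restricted gene was not called. Atp6v1b1, Atp6v1e2, Atp6v1g3 and Atp6ap1l were not measured: Atp6v1g3 was listed at 0 in all samples and the highest value among the others was 0.102 FPKM.

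Among cathepsins the aspartic protease Ctsd was the most abundant in both groups. Ctsd (ENSMUSG00000007891, chromosome 7, 142371148 to 142388038, minus strand) was at 2988, 3554 and 3250 FPKM in control and at 1776, 1612 and 1216 FPKM in knockout samples. Every knockout sample was below every control sample, and Ctsd fell by 1.10 ± 0.18 on the log2 scale (SE, limma adjusted p = 0.00607). Ctse, the other aspartic cathepsin, known from gastric and antigen-presenting cells, was not measured, with values from 0.205 to 0.622 FPKM. Of the serine enzymes, Ctsa, the carboxypeptidase that also protects lysosomal neuraminidase and β-galactosidase, was at 162, 195 and 175 FPKM in control and at 98.3, 85.9 and 59.1 FPKM in knockout samples. It fell by 1.15 ± 0.19 (SE, limma adjusted p = 0.00624). Pltp, with a mean of 262 FPKM, overlaps Ctsa on the opposite strand, and reads in the shared part cannot be assigned.

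Ctsb and Ctsl, broadly expressed lysosomal endopeptidases, fell by nearly the same factor. Ctsb (ENSMUSG00000021939, chromosome 14, 63122462 to 63145919, plus strand) was at 1536, 1747 and 1616 FPKM in control and at 947, 874 and 556 FPKM in knockout samples, and fell by 1.08 ± 0.22 (SE, limma adjusted p = 0.00990). Ctsl (ENSMUSG00000021477, chromosome 13, 64363214 to 64370306, minus strand) was at 1062, 1046 and 1136 FPKM in control and at 635, 550 and 371 FPKM in knockout samples, and fell by 1.09 ± 0.21 (SE, limma adjusted p = 0.00830). The log2 ratio of Ctsl to Ctsb differed by −0.01 between groups (exact two-sided permutation p = 0.90), from −0.59 ± 0.13 in control to −0.61 ± 0.05 in knockout samples (SD, n = 3 each). Ctsz, a carboxypeptidase, was at 559, 669 and 644 FPKM in control and at 380, 347 and 268 FPKM in knockout samples, and fell by 0.92 ± 0.16 (SE, limma adjusted p = 0.00655).

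Ctss and Ctsk had the largest decreases among cathepsins. Ctss, which trims the invariant chain in antigen-presenting cells and is abundant in macrophages (ENSMUSG00000038642, chromosome 3, 95526786 to 95556403, plus strand), was at 957, 1241 and 1124 FPKM in control and at 531, 468 and 202 FPKM in knockout samples. It fell by 1.58 ± 0.36 (SE, limma adjusted p = 0.0146), by 1.14 without knockout replicate 3, and had an adjusted p of 0.0591 without control replicate 2 and 0.0532 without control replicate 3. Ctsk, the collagen-degrading cathepsin of osteoclasts that fibroblasts also make (ENSMUSG00000028111, chromosome 3, 95499286 to 95509362, plus strand), lies next to Ctss on the chromosome. It was at 290, 451 and 349 FPKM in control and at 137, 114 and 43.9 FPKM in knockout samples, a mean 3.70-fold lower. Ctsk fell by 2.01 ± 0.42 (SE, limma adjusted p = 0.0112), or by 1.51 without knockout replicate 3. For both genes the groups were apart and knockout replicate 3 was lowest.

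Relative to Ctsb, Ctsk was lower by 0.93 and Ctss by 0.50 on the log2 scale in the knockout, or Ctss by 0.30 without knockout replicate 3. Each ratio had groups that did not overlap and an exact two-sided permutation p of 0.10, or 0.11 adjusted over the 11 ratios. The share of Ctsk in summed cathepsin FPKM was 3.73%, 4.95% and 4.11% in control and 2.92%, 2.70% and 1.55% in knockout samples. Macrophage markers had a median log2 fold change of −1.06, with 13 of 18 lower, none higher and 5 not called. Fibroblast and progenitor markers had 4 of 12 lower and none higher, against 21.6% of tested genes called lower. None of these markers was listed at 0 in all samples. They summed to 2535 to 2856 FPKM in control and 1349 to 2222 FPKM in knockout samples. The part of either cell type in the decrease of Ctsk and Ctss was not tested.

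Ctsc and Ctsh, exopeptidases of which Ctsc activates the granule proteases of leukocytes, fell less and less firmly. Ctsh was at 84.4, 93.0 and 84.8 FPKM in control and at 59.1, 57.2 and 31.5 FPKM in knockout samples. It fell by 0.87 ± 0.24 (SE, limma adjusted p = 0.0250), or by 0.58 without knockout replicate 3. Ctsc was at 75.8, 73.2 and 76.1 FPKM in control and at 58.6, 61.5 and 41.6 FPKM in knockout samples, and fell by 0.49 ± 0.15 (SE, limma adjusted p = 0.0356), or by 0.32 without knockout replicate 3. Both calls were lost without any 1 control library, with a limma adjusted p of 0.0607, 0.0851 and 0.0711 for Ctsh and 0.0901, 0.0911 and 0.102 for Ctsc without control replicates 1, 2 and 3.

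**Figure D4:**
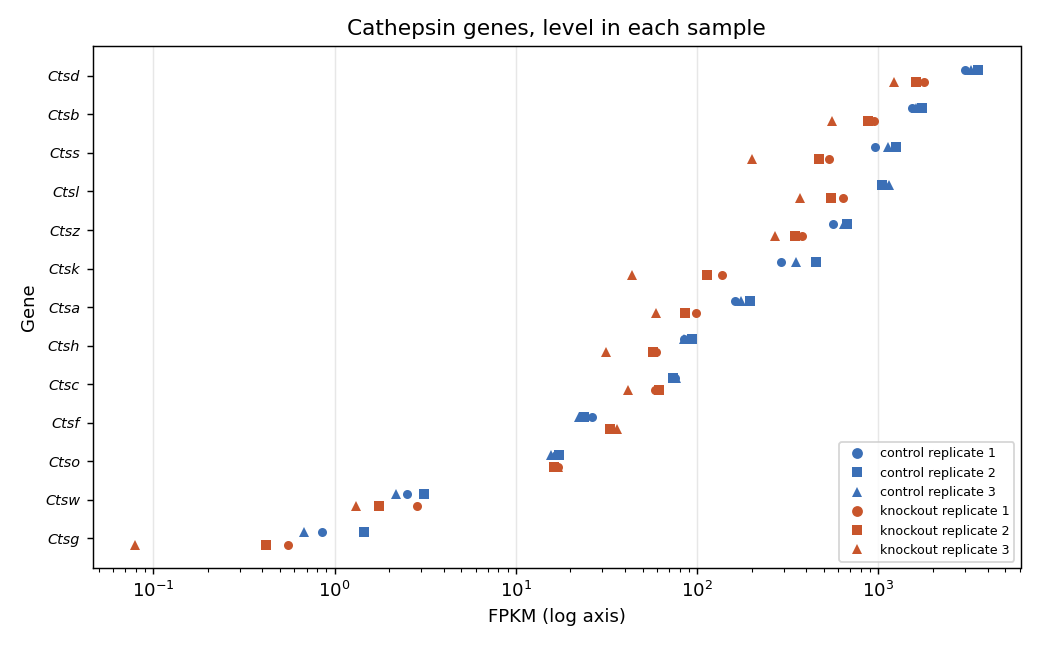
FPKM of the 13 measured cathepsins on a log axis, ordered by control mean, with control samples in blue above knockout samples in orange and a symbol for each replicate. Ctsd to Ctsc are shifted to the left in knockout samples with the knockout replicate 3 triangle farthest, Ctsf is shifted to the right and the Ctso symbols overlap.

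Ctsf and Ctso did not follow the others. Ctsf, a cysteine cathepsin with a long propeptide (ENSMUSG00000083282, chromosome 19, 4855129 to 4860912, plus strand), was at 26.2, 23.9 and 22.3 FPKM in control and at 32.9, 33.0 and 36.2 FPKM in knockout samples. Every knockout sample was above every control sample, and Ctsf rose by 0.49 ± 0.08 on the log2 scale (SE, limma adjusted p = 0.00655). Its share of summed cathepsin FPKM was 0.287% ± 0.0433 in control and 0.919% ± 0.309 in knockout samples (SD, n = 3 each). Relative to Ctsb it was higher by 1.57 (exact two-sided permutation p = 0.10, 0.11 adjusted over the 11 ratios). Ctso was at 16.6, 17.2 and 15.6 FPKM in control and at 17.1, 16.1 and 17.2 FPKM in knockout samples. The groups overlapped, with a difference of 0.03 and a 95% interval from −0.14 to 0.19 (limma adjusted p = 0.762).

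Cathepsins of granule-bearing leukocytes were near the limit of measurement. Ctsg, a serine protease of neutrophil and mast cell granules, was at 0.855, 1.46 and 0.677 FPKM in control and at 0.554, 0.416 and 0.0790 FPKM in knockout samples. The groups did not overlap, and the difference of −0.83 ± 0.29 (SE) was not called (limma adjusted p = 0.0542). It was −0.57 without knockout replicate 3 (limma adjusted p = 0.0929), −0.62 without control replicate 2 (0.164) and −1.005 without knockout replicate 1 (0.0422). Its size also depended on the scale, from −0.56 with a pseudocount of 1 to −1.67 with limma-voom. Mast cell markers (9 of 10 measured, none listed at 0 in all samples) had 6 lower and 1 higher and summed to 194 to 426 FPKM in control and 44.4 to 86.6 FPKM in knockout samples. Neutrophil markers (3 of 12 measured) had 2 lower and none higher, and their sums overlapped, at 29.5 to 31.8 and 21.5 to 40.9 FPKM. For both lists the share over all tested genes was 21.6% called lower and 21.9% called higher. Ctsw, known from natural killer and cytotoxic T cells, was at 2.5, 3.12 and 2.18 FPKM in control and at 2.86, 1.75 and 1.32 FPKM in knockout samples. Its groups overlapped, with a difference of −0.36 (limma adjusted p = 0.261). Over the fits without 1 library it ranged from −0.16 without knockout replicate 3 (limma adjusted p = 0.568) to −0.60 without knockout replicate 1 (0.0414), and was −0.24 without control replicate 2 (0.533). Markers of T and natural killer cells (12 of 14 measured) had 3 lower and none higher, against 21.6% of tested genes called lower. They summed to 15.8 to 18.4 FPKM in control and 9.61 to 15.4 FPKM in knockout samples. The part of these cells in the values of Ctsg and Ctsw was not tested. Ctsj, Ctsm, Ctsq and Ctsr, known from mouse placenta, were not measured, with 0.230 FPKM the highest value and Ctsr listed at 0 in all samples.

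Other lysosomal genes were set beside the 21.6% of all tested genes called lower and the 21.9% called higher. Of 35 lysosomal enzymes other than cathepsins 28 fell and 2 rose, with a median log2 fold change of −0.65. Gla fell by 1.61 ± 0.25, Galc by 1.00 ± 0.14 and Hgsnat by 0.73 ± 0.08 (SE). Smpd1, acid sphingomyelinase, rose by 0.73 ± 0.11 (SE). Of 20 measured membrane proteins and channels 14 fell and 1 rose, with a median of −0.52. They included Mcoln2, a cation channel, at −1.70 ± 0.27 and Clcn7, the chloride exchanger that works beside the pump, at −0.90 ± 0.14, and Laptm4b, which rose from 21.7 ± 2.08 to 53.2 ± 9.12 FPKM (SD, n = 3 each). Lamp1 fell by 0.47 ± 0.11 (SE, limma adjusted p = 0.0177). Of 15 measured sorting receptors and activators 9 fell and 1 rose, with a median of −0.35, among them Psap, the saposin precursor, at −1.34 ± 0.24 and Igf2r, a receptor for mannose 6-phosphate, at −0.97 ± 0.16. Of 12 assembly factors and partners of the pump, Tcirg1 included, 6 fell and 1 rose, with a median of −0.28; Ccdc115 fell by 0.70 ± 0.10 and Wdr7 by 0.60 ± 0.09 (SE).

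Of 9 measured cathepsin inhibitors 5 fell and 2 rose, where the share of all tested genes called was 21.6% lower and 21.9% higher. Serpinb6a fell by 1.07 ± 0.19 and Serpina3g by 1.03 ± 0.17, while Serpina3n rose by 0.77 ± 0.14 and Ctla2a, an inhibitor of Ctsl-like proteases, by 0.95 ± 0.09 (SE). Cst3, cystatin C, the most widely made inhibitor, was at 976, 981 and 948 FPKM in control and at 880, 856 and 666 FPKM in knockout samples, and its difference of −0.28 was not called (limma adjusted p = 0.144). Of 18 measured genes of the MiT/TFE factors and of the lysosomal mTORC1 platform 8 fell and 1 rose, with a median of −0.23. All 4 factors of that family fell. Tfeb was at 23.6, 30.0 and 26.0 FPKM in control and at 14.7, 15.3 and 10.1 FPKM in knockout samples, and fell by 0.98 ± 0.17 (SE, limma adjusted p = 0.00688). Mitf fell by 1.06 ± 0.17, Tfe3 by 0.60 ± 0.08 and Tfec, known from macrophages, by 1.92 ± 0.20 (SE). An mRNA level does not show where these factors were in the cell, which is how their activity is known to be set.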

How the data were processed

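Epididymal fat of 3 control and 3 knockout samples gave RNA by Trizol and libraries by a NEBNext Ultra kit, per the labels' protocols. Whether every library came from its own animal is not in the labels, and p-values then cover only the spread among libraries, which may be technical. CASAVA, FastQC, STAR 2.5 and HTSeq 0.6.1 with build mm10 are named in the submitters' processing notes; for the annotation release and strand setting the sources used here give nothing. The authors deposited FPKM per gene, with gene length in bases beside it, per the file headers. Multiplied by length in kilobases, the FPKM of a sample summed to 1000000, and every value came out as a whole number of reads within 0.01, which gave the depth and the reads used below.

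Genes with at least 0.5 FPKM in 3 samples (14383) were fitted as log2(FPKM + 0.5) with limma 3.58.1 (R 4.3.3, statmod 1.5.0; trend, robust, two-sided, Benjamini-Hochberg over all tested genes); fold changes on this scale understate those of low genes. "Rose", "fell", "higher" and "lower" calls mean an adjusted p under 0.05. Ratios of isoforms were taken per sample on log2(FPKM + 0.5) and compared with an exact permutation test in Python 3.11.15; of 15 pairs listed, 11 had both genes measured. Genes named are all members, up to 4 called genes with the smallest p in each lysosomal list, and a few regulators. Members, lists and alternatives were chosen with earlier results of these data known. Names turned into dates (27) were restored by identifier. Promoters came from RefSeq, GRCm38.p6. A comparison of the proteins was planned and not run. The fit was also run on simulated counts with far fewer changed genes and no outlying library. That run does not vouch for the calls made here. Alternatives were pseudocounts of 0.1 and 1, a filter at 1 FPKM or none, a block on replicate number, median-of-ratios scaling, limma-voom on the reads, and leaving out libraries.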

Additional observations from a re-analysis of the deposited data

How the results depend on the processing

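Of 474 values of single members under the alternatives, 443 kept their direction and their side of the threshold, 20 lost the call, 6 gained it and 5, all of genes not called, changed sign. The rise of Atp6v0e2 and of Ctsf was called under every alternative run. Over the fits without 1 library, the number of V-ATPase genes that fell ranged from 10 to 14 and that of cathepsins from 6 to 11. Over all tested genes the number lower was 3106 with all libraries, falling to 1324 when control replicate 2 was dropped and to 1559 when control replicate 3 was. With no filter Atp6v1d had a limma adjusted p of 0.0525 and Ctsc of 0.0635, and with median-of-ratios scaling Atp6v0e had 0.0497. The genes that changed sign were Atp6v0a2, which ranged from −0.083 to 0.0029 without 1 library and was at 0.026 without knockout replicate 3 and control replicate 2 together, Atp6v1g2, from −0.069 (without knockout replicate 1) and −0.067 (without control replicate 1) to 0.11, and Ctso, from −0.011 to 0.059. The difference in the ratio of Ctsl to Ctsb ranged from −0.088 to 0.028 without 1 library, was −0.10 without knockout replicate 3 and control replicate 2 together, and was also positive at 0.016 without control replicate 1 and 0.015 without knockout replicate 2. No other ratio changed sign, but a test over 3 against 3 samples cannot pass the threshold and so says nothing of stability.

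Same-numbered samples did not deviate together: the correlations across genes were −0.24, 0.03 and −0.18 for numbers 1, 2 and 3, and no sample correlated best with its own number. With the replicate number as a block 12 V-ATPase genes and 9 cathepsins fell and 1 of each rose, where 2311 of all tested genes fell. Under the block Atp6v1d had a limma adjusted p of 0.0633, Ctsc of 0.0578 and Ctsg of 0.0366, and the paired ratios had adjusted exact p-values no lower than 0.275.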
